A study of Mus musculus with 16 samples.

Results

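The Hox gene clusters are described here by the accessible chromatin regions that lie in and around them in mouse embryonic stem (ES) cells. The members are the regions whose centre falls between 50 kb before the first and 50 kb after the last of 38 Hox genes (10 of Hoxa from Hoxa2, 10 of Hoxb, 9 of Hoxc and 9 of Hoxd) in GENCODE M21. They are 96 of the 81132 regions of a merged list, with 22 regions at Hoxa, 19 at Hoxb, 30 at Hoxc and 25 at Hoxd. The list comes from ATAC-seq, in which the Tn5 transposase cuts accessible DNA, on 12 libraries with 3 replicates each of the sorted populations SHOH, SHOL, SLOH and SLOL (SOX2 high or low, OCT4 high or low). All 4 populations were sorted in G1 phase, by SOX2-SNAP and OCT4-HALO signal, from SBROS, a clonal line of CGR8 background in which both Sox2 alleles carry a SNAP-tag and 1 Oct4 allele a HALO-tag, next to SOX1 and Brachyury reporters. The cells were grown with LIF, 3 µM CHIR99021 and 0.8 µM PD184352, and were stained with 100 nM TMR, 12 nM SiR647 and 1.62 µM Hoechst for the sort. The authors called peaks in each library and merged them, and the list gives the position of each region without a level or a library. A region may therefore stem from any number of the 12 libraries, the list does not give the reads behind it, no error between replicates can be given, and the populations were not compared with each other. Intervals given below cover counting error alone, and neighbouring regions or genes of a cluster are not independent of each other. Of 10 ES cell marker genes, 9 had a region at the promoter (Nanog had none), against 1 of 10 marker genes of other cell types, the neuronal gene Neurod1, and 65.1% of all protein-coding genes. A CpG island was at the promoter of 6 of the ES cell markers and 2 of the others, and a region was present at 95.6% of all protein-coding genes with such an island and at 22% of those without.

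Hox genes encode homeodomain transcription factors that give cells their position along the head-to-tail axis. Within a cluster the genes are ordered by paralogue number, genes with low numbers act earlier and further towards the head, and genes with high numbers act later and further towards the tail, in the limbs and in the urogenital tract. In ES cells the clusters are known to be held silent by Polycomb proteins over CpG-rich DNA, and retinoic acid is known to induce genes with low paralogue numbers first.

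Sequences were chosen to show what the regions are made of. Regions are numbered within each cluster from the side of the low paralogue numbers, and all sequences of regions are from mm10 on the + strand. Hoxa_r2 (chr6:52138619-52138903) is shown because it was the single member with a DR5 element, a pair of repeated elements of the retinoic acid receptor type with 5 bases between them. It lay in no annotated gene, 23.7 kb beyond Hoxa2 at the low-number side of the cluster, and capitals mark the repeated elements.
Hoxa_r2: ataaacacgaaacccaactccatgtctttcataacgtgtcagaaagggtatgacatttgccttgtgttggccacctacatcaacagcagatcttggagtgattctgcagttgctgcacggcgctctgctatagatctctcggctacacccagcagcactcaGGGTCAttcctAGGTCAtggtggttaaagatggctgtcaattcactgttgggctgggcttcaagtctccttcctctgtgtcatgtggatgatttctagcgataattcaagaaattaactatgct
For each cluster, the central 300 bases are shown of the region outside every annotated exon that had the highest ratio of observed to expected CpG dinucleotides, with each CpG in capitals. Hoxa_r5 (chr6:52192011-52192310) lay in introns of Hoxa3, of the longer record Gm28308 and of the antisense gene Hoxaas3, at the promoter of Hoxa4. Outside annotated genes, Hoxb_r16 (chr11:96203406-96203705) lay in the space between Hoxb13 and Hoxb9. Hoxc_r1 (chr15:103085968-103086267) lay in the side beyond Hoxc4, and Hoxd_r20 (chr2:74672882-74673181) between Hoxd13 and Hoxd12, also outside annotated genes.
Hoxa_r5: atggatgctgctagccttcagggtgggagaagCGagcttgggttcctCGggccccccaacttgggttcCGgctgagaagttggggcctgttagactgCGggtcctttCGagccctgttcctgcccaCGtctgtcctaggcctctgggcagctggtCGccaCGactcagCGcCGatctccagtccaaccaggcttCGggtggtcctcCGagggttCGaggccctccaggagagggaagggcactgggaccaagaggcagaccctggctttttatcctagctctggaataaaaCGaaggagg
Hoxb_r16: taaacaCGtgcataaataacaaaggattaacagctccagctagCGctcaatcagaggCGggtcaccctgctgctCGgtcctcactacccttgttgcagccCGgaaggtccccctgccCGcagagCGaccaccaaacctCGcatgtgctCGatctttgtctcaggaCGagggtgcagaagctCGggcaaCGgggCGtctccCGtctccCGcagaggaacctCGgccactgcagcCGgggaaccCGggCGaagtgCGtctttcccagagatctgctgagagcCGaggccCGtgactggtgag
Hoxc_r1: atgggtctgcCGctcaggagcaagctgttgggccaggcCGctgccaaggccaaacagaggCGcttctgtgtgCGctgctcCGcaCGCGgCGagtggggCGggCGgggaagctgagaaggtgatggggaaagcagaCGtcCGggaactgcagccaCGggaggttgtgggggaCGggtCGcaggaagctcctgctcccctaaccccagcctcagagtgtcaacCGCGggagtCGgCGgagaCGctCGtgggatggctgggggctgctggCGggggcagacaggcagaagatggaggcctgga
Hoxd_r20: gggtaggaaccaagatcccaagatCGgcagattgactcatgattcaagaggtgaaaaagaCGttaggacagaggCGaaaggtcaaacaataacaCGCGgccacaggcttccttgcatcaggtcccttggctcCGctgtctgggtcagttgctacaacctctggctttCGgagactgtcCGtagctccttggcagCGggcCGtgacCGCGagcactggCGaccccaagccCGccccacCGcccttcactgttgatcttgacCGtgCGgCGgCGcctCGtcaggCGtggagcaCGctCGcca
The stretches hold 14 CpGs in Hoxa_r5, 22 in Hoxb_r16, 22 in Hoxc_r1 and 23 in Hoxd_r20. A part of Hoxc_r23, a region of 456 bp between Hoxc12 and Hoxc11 outside annotated genes, is shown around its motifs (chr15:102943126-102943271). It was added after its values were seen, as the single member that held both a SOX motif and a HOX-PBX motif. Both are in capitals, 11 bases apart.
Hoxc_r23: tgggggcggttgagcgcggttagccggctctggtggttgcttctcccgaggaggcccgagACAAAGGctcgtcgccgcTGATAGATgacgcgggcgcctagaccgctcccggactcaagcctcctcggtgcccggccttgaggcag
The windows also hold 6 microRNA genes with sequences in RefSeq, whose mature 5p products fall into groups by seed, bases 2 to 8, in capitals (GRCm38.p6). GENCODE M21 lists a further microRNA record, Gm44463 in Hoxd, which no region overlapped. Mir10a in Hoxb and Mir10b in Hoxd share a seed, as do Mir196b in Hoxa and Mir196a-1 and Mir196a-2 in Hoxb and Hoxc. The products of Mir615, which lies in an intron of Hoxc5, have seeds of their own.
mmu-miR-10a-5p: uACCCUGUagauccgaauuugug
mmu-miR-10b-5p: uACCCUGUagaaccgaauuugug
mmu-miR-196a-5p: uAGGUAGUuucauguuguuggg
mmu-miR-196b-5p: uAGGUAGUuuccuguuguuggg
mmu-miR-615-5p: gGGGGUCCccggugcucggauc
mmu-miR-615-3p: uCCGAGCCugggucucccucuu

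Accessible regions were dense in all 4 clusters, most of all in Hoxd and Hoxc. From the first to the last listed gene, Hoxd (chr2:74668310-74765142) held 20 regions, or 20.7 per 100 kb, and Hoxc (chr15:102921103-103036852) held 23 regions, or 19.9 per 100 kb. Hoxa (chr6:52162417-52260880) held 14 regions, or 14.2 per 100 kb. Hoxb (chr11:96194316-96368256), the longest cluster with 174 kb, held 17 regions, or 9.77 per 100 kb. Over the 4 clusters the density was 15.3 regions per 100 kb, against 3.06 over the whole genome and between 3.13 and 4.51 on the chromosomes that carry the clusters. Density was lower in the 50 kb sides, where 22 regions gave 5.5 per 100 kb. Of these, 14 lay beyond the paralogue 13 end and 8 beyond the low-number end, and the side of Hoxb beyond Hoxb1 had no region in 50 kb.

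**Figure D1:**
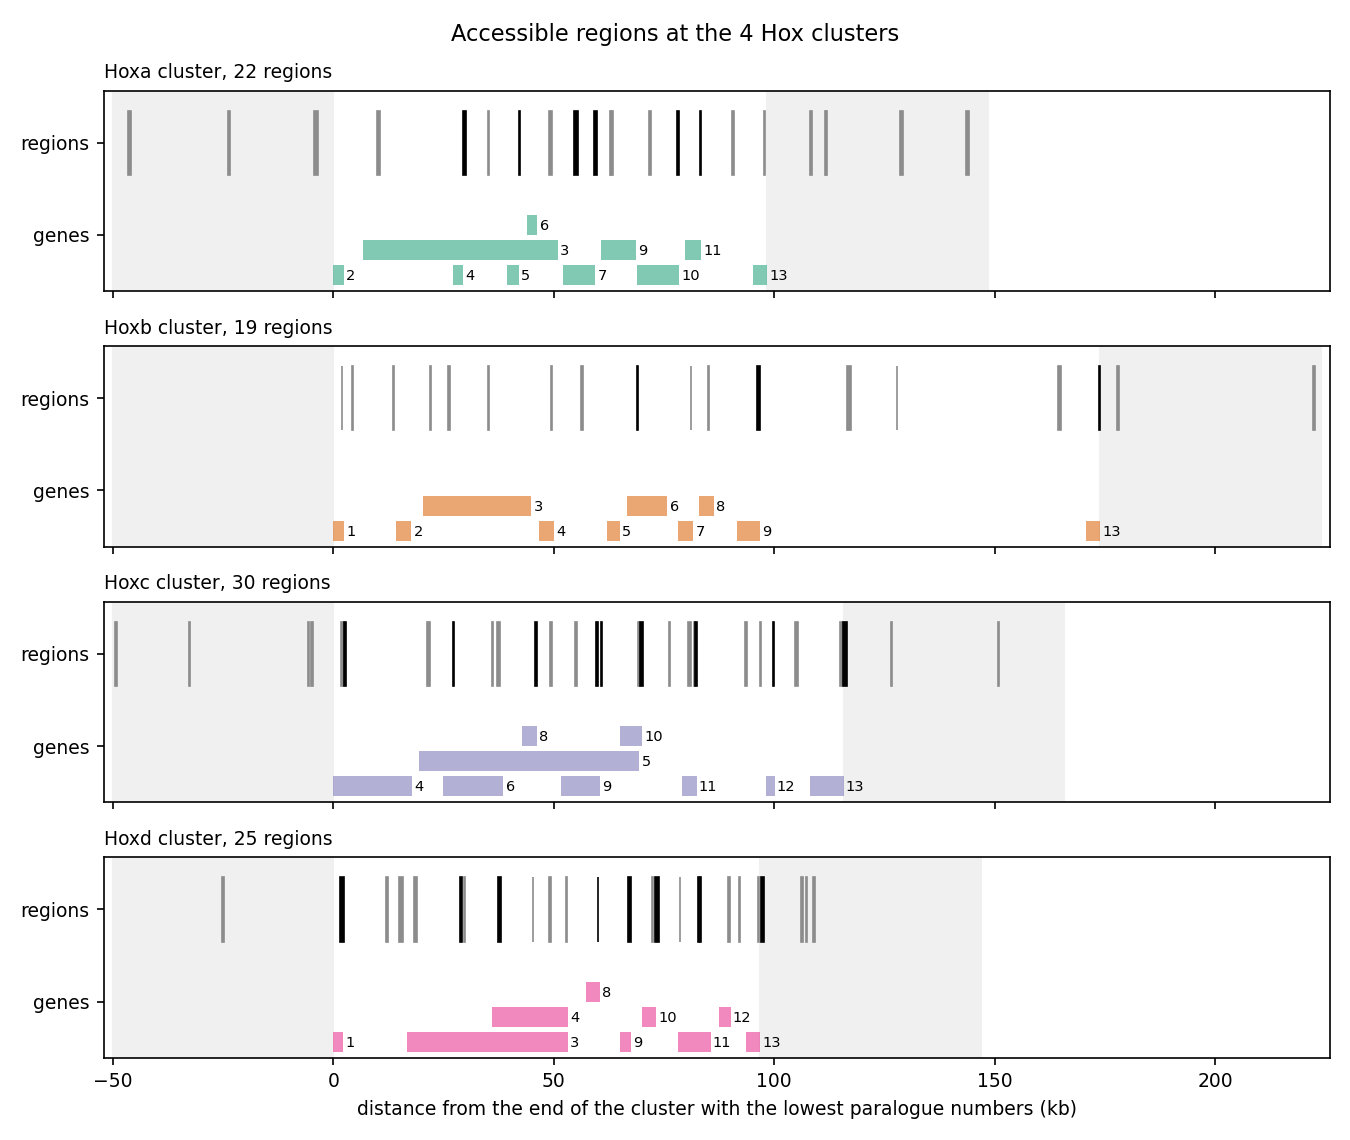
Map of the 4 clusters, with distance in kb from the end with the lowest paralogue numbers on the horizontal axis. Bars are regions (black at a promoter of a listed Hox gene, grey elsewhere), boxes are genes with their paralogue number and shaded parts are the 50 kb sides; Hoxb has 4 regions in the wide space between Hoxb13 and Hoxb9.

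The covered length followed the same order. Regions covered 9.04% of Hoxd, 7.94% of Hoxc, 6.04% of Hoxa and 2.56% of Hoxb, and 5.84% of the 4 clusters together, against 1.33% of the genome. Genome tiles as long as each whole window, sides included, put these counts in place. For Hoxc, 39 of 12130 tiles (0.322%) held at least its 30 regions, and for Hoxd 132 of 13300 tiles (0.992%) held at least its 25. For Hoxa, 2.33% of 13202 tiles reached its 22 regions, and for Hoxb 11.5% of 9534 tiles reached its 19. The median tile held between 4 and 6 regions. Against tiles of their own chromosome alone, the shares were 0.216% for Hoxc, 0.779% for Hoxd, 6.00% for Hoxa and 20.4% for Hoxb. Neighbouring members were separated by a median of 5.78 kb, against 11.3 kb between neighbours in the whole list, and the longest gap between neighbouring members was 44.2 kb, in the Hoxb window. At the limits of the windows, the outermost members lay between 0.735 and 52.0 kb inside, and the first regions beyond lay between 4.03 and 68.7 kb outside.

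**Figure D2:**
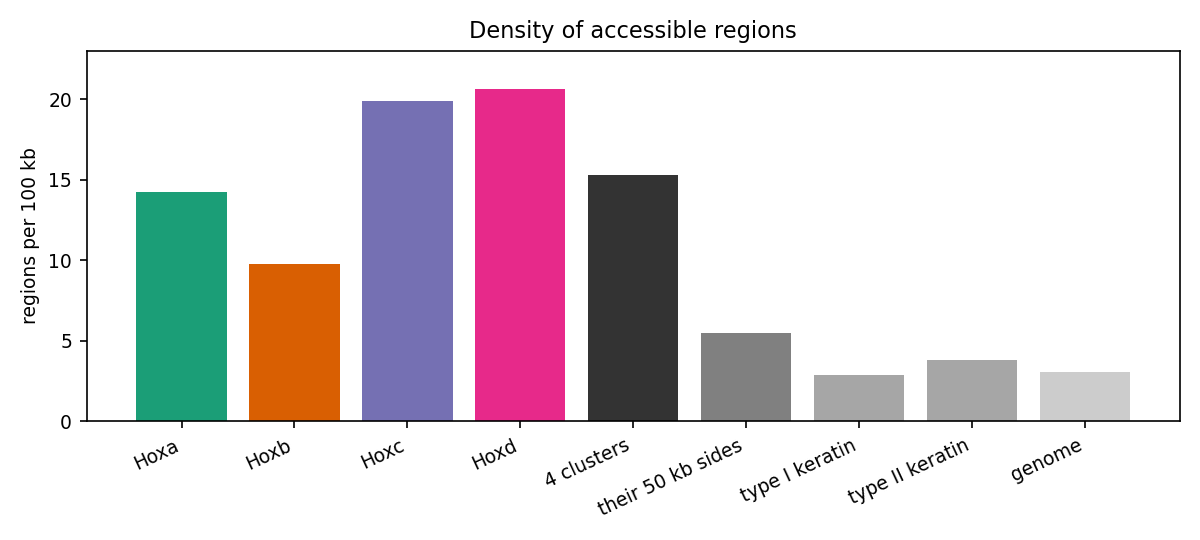
Regions per 100 kb from the first to the last gene of each Hox cluster, over the 4 clusters, in their 50 kb sides, in 2 keratin gene clusters and over the genome. The bars of the Hox clusters range from 9.77 to 20.7, the bar of their sides stands at 5.5, and the keratin and genome bars range from 2.89 to 3.798.

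A promoter was taken as the 1000 bp before and the 100 bp after any transcription start site (TSS) of a protein-coding transcript. A region overlapped it for 24 of the 38 Hox genes (63.2%, 95% Wilson interval 47.3% to 76.6%). Among all 21853 protein-coding genes the share was 65.1%. How the shares compare depends on the definition of the promoter. With the centre of the region required in the promoter, it was 13 of 38 Hox genes (34.2%, 21.2% to 50.1%) and 53.0% of all genes. With 5 kb to both sides of each TSS, it was 37 of 38 (97.4%, 86.5% to 99.5%) and 74.6%. Of the 29 Hox genes with a CpG island at the promoter, 20 had a region there (69.0%, 50.8% to 82.7%), while 95.6% of all 12811 protein-coding genes with such an island did. Of the 9 Hox genes without an island there, 4 had a region (44.4%, 18.9% to 73.3%), against 22% of the 9042 protein-coding genes without one. The clusters differed in count. In Hoxc and in Hoxd 8 of 9 genes had a promoter region (88.9%, 56.5% to 98.0%), in Hoxa 5 of 10 (50.0%, 23.7% to 76.3%) and in Hoxb 3 of 10 (30.0%, 10.8% to 60.3%). These intervals overlap, so that the order of the clusters is a description of this list.

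By paralogue position, the share with a promoter region was highest at high numbers when the clusters were pooled, but not within each cluster. Of the 16 genes with paralogue numbers 9 to 13, 13 had a promoter region (81.25%, 57.0% to 93.4%), against 6 of 11 genes with numbers 5 to 8 (54.5%, 28.0% to 78.7%) and 5 of 11 genes with numbers 1 to 4 (45.5%, 21.3% to 72.0%). All 3 paralogues with number 10 and all 3 with number 11 had one. Hoxa11 and Hoxd11 pattern the forearm, and Hoxa10 acts in the uterus. Neither Hoxa2, which patterns the hindbrain and the branchial arches, nor Hoxb2 had a promoter region. Among the 4 genes with number 13, which act at the tail end of the axis, Hoxb13, Hoxc13 and Hoxd13 had one and Hoxa13 did not. Clusters are mixed in these counts. In Hoxb, 2 of 2 genes with numbers 9 to 13 and 1 of 8 with lower numbers had a promoter region, and in Hoxc 5 of 5 and 3 of 4. In Hoxa the shares were level, with 2 of 4 and 3 of 6, and in Hoxd they ran the other way, with 4 of 5 and 4 of 4.

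**Figure D3:**
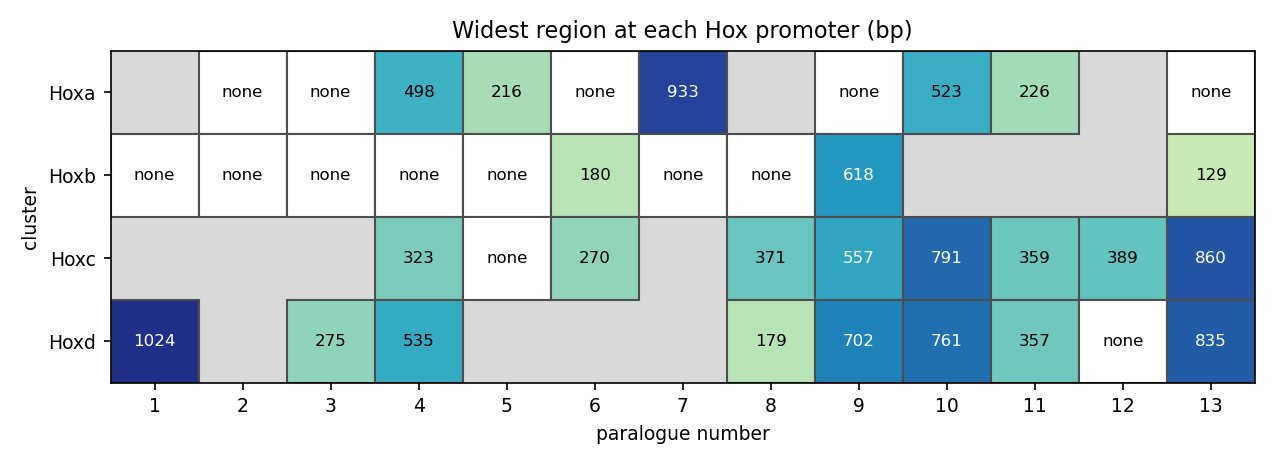
Width in bp of the widest region at the promoter of each listed Hox gene, with the cluster on the vertical and the paralogue number on the horizontal axis. White cells are genes without a promoter region and grey cells have no gene in the list; promoter regions are at 8 of 9 genes in Hoxc and in Hoxd and missing at 7 of 10 in Hoxb.

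The widest member was at the promoter of Hoxd1, a gene of the low-number end, with 1024 bp. Next among the regions at Hox promoters were 933 bp at Hoxa7, 860 bp at Hoxc13, which acts in hair follicles, and 835 bp at Hoxd13, which acts in the digits. Hoxc10 had 791 bp, Hoxd10 had 761 bp and Hoxd9 had 702 bp. At the other end were Hoxb13 with 129 bp, Hoxd8 with 179 bp and Hoxb6 with 180 bp. Over the 27 regions at Hox promoters the median width was 389 bp (quartiles 263.5 and 685.5 bp). It was 687 bp (444 and 914 bp) over the 15774 regions at protein-coding promoters and 757 bp over those of them that overlapped a CpG island. The Hox median was 546 bp with regions at most 500 bp apart joined and 523 bp with regions of at least 200 bp alone. With the centre of the region required in the promoter it was 340 bp. The medians of the other groups were not computed in these settings. Regions at Hox promoters had medians of 535 bp in Hoxd, 510.5 bp in Hoxa (6 regions), 371 bp in Hoxc and 180 bp in Hoxb (3 regions). Members away from Hox promoters had a median width of 318 bp, close to the 314 bp of all regions away from protein-coding promoters. Over all members the median was 349.5 bp, with a range of 129 to 1024 bp, and 355 bp over the whole list.

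Several Hox genes without a promoter region had one just inside the gene. Hoxb4, known for expanding blood stem cells when overexpressed, had a region of 281 bp centred 525 bp downstream of its main TSS, which is the start of the shortest principal transcript. The neighbouring genes Hoxb7 and Hoxb8 had regions centred 481 and 458 bp downstream. Hoxb1, a hindbrain gene, had one 512 bp downstream, Hoxd12 had one 439 bp downstream and Hoxa13 one 713 bp downstream. Of the 14 Hox genes without a promoter region, 7 had a region between the promoter's end and 1000 bp downstream of a TSS (50.0%, 26.8% to 73.2%), against 6.35% of the 7617 protein-coding genes without a promoter region and 33.5% of the 564 of them with an island there. Counting either position, 31 of 38 Hox genes had a region (81.6%), against 67.4% of all protein-coding genes and 97.1% of those with an island. Where a region touched the promoter of the main TSS, it covered the TSS itself in 11 of 22 cases for Hox genes (50.0%, 30.7% to 69.3%), against 81.0% of 13991 cases for all protein-coding genes.

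**Figure D4:**
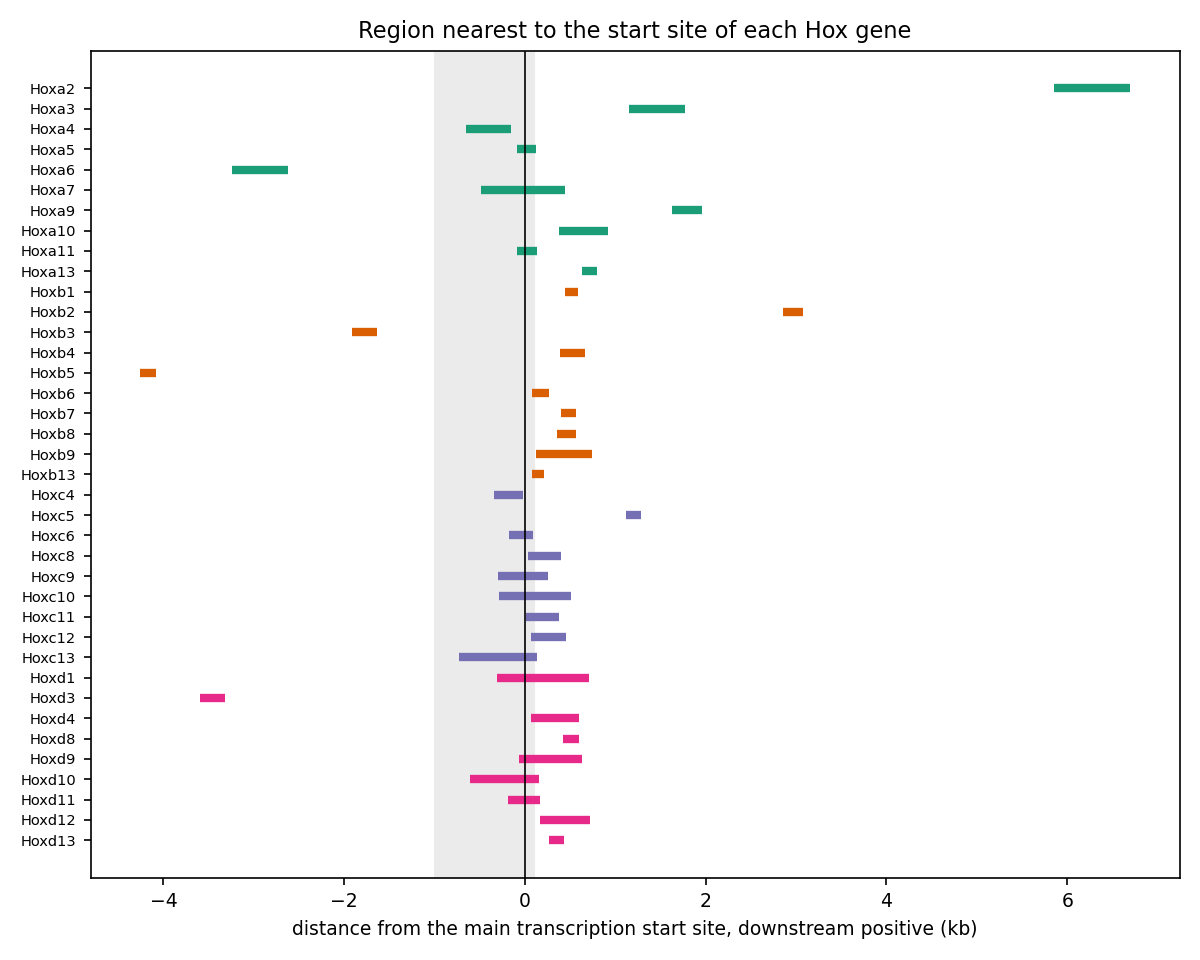
Region nearest to the main TSS of each listed Hox gene, drawn to scale with distance in kb on the horizontal axis, downstream positive, and the promoter shaded. In Hoxb 7 of 10 nearest regions are centred within 1 kb, each of them downstream, against 8 of 9 within 1 kb in Hoxc and in Hoxd.

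The region nearest to the main TSS was centred a median of 376.5 bp away for the 38 Hox genes, and within 1 kb for 29 of them (76.3%, 60.8% to 87.0%). All protein-coding genes had a median of 296 bp and 61.4% within 1 kb, and those with an island at the promoter had 150 bp and 89.9%. The farthest was the region nearest to Hoxa2, with 6275 bp. Hoxb5 and Hoxd3 followed with 4169 and 3461 bp, the latter a region at another start site of Hoxd3, and Hoxa6, Hoxb2, Hoxa9, Hoxb3, Hoxa3 and Hoxc5 had between 1199 and 2961 bp. Of the 96 members, 26 were centred in protein-coding sequence (27.1%, 19.2% to 36.7%), against 5.93% of all regions. This was so for 8 of 19 regions in Hoxb, 7 of 25 in Hoxd, 8 of 30 in Hoxc and 3 of 22 in Hoxa (13.6%, 4.75% to 33.3%). Among regions that overlapped a CpG island, 25 of 69 members (36.2%) and 15.7% of all such regions were centred in coding sequence.

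In base composition the members were close to promoter regions of the whole list. Their median GC content was 60.6% and their median ratio of observed to expected CpG 0.674 (95% interval of the median 0.594 to 0.729), against 51.9% and 0.3004 over all regions and 61.9% and 0.721 over regions at protein-coding promoters. This extended to members away from Hox promoters, with a median ratio of 0.634, while all regions away from protein-coding promoters had 0.246. By cluster, the median ratio was 0.775 in Hoxd, 0.691 in Hoxb, 0.676 in Hoxa and 0.597 in Hoxc. A CpG island overlapped 69 members (71.9%), against 23.04% of all regions. Repeats, marked in the assembly by soft-masking, made up more than 50% of 1 member (1.04%) and of 13.7% of all regions, and 48 members (50.0%) and 26.2% of all regions had no masked base. The clusters themselves were 13.4% masked in Hoxa, 14.4% in Hoxd, 15.9% in Hoxc and 24.6% in Hoxb, against 36.4% of the genome.

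CpG islands (joined 200 bp windows with at least 50% GC and a ratio of at least 0.6, 500 bp or longer) numbered 94 in the 4 clusters, or 19.4 per 100 kb, against 1.17 per 100 kb in the genome. A region overlapped 53 of them (56.4%, 46.3% to 66.0%), and 52.9% of the 31033 islands of the genome, so that the overall shares were close for islands of this length. Among islands of at least 200 bp, 68 of 238 in the clusters (28.6%, 23.2% to 34.6%) and 16.8% of those of the genome had a region. Split by position, the shares of the longer islands were apart in opposite directions. Of 37 islands at Hox promoters 30 had a region (81.1%, 65.8% to 90.5%), against 93.6% of 12716 islands at protein-coding promoters. Of 57 other islands in the clusters 23 had one (40.4%, 28.6% to 53.3%), against 24.7% of 18317 islands away from protein-coding promoters. The share was 78.9% in Hoxd (15 of 19), 70.0% in Hoxc (14 of 20), 46.2% in Hoxb (12 of 26) and 41.4% in Hoxa (12 of 29). Islands with a region were covered to a median of 38.04% in the clusters and 71.02% in the genome.

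**Figure D5:**
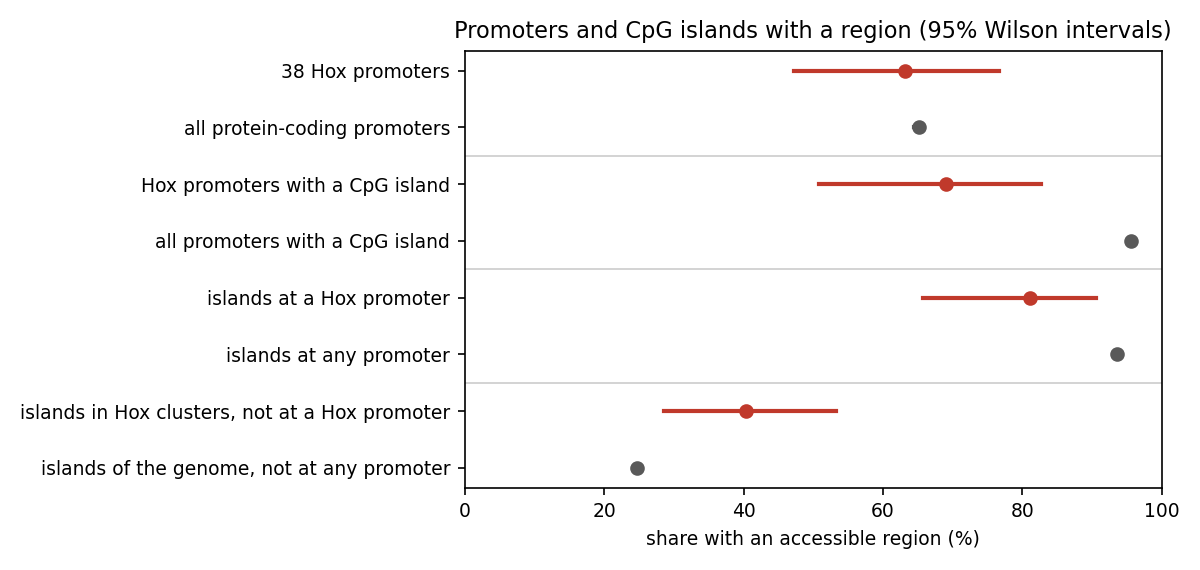
Share in percent of promoters and CpG islands with an accessible region, for the Hox clusters in red and for the genome in grey, with points for shares and lines for 95% Wilson intervals, which are narrower than the points for the genome. Hox promoters with an island stand at 69.0% and all such promoters at 95.6%, while islands away from promoters stand at 40.4% in the Hox clusters and 24.7% in the genome.

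Of the 96 members, 38 were centred in a Hox gene body, 36 in a space between neighbouring Hox genes and 22 in the sides. Gene bodies were taken from the shortest principal transcript, and the body of Hoxa3, a gene of the pharyngeal arches, still spans Hoxa4, Hoxa5 and Hoxa6, which leaves 31 spaces. A region lay in 20 of them. Hoxc had a region in 7 of 8 spaces and Hoxd in 6 of 8, while Hoxb had one in 4 of 9 and Hoxa in 3 of 6. The longest space, 74.0 kb between Hoxb13 and Hoxb9, held 4 regions. In Hoxc, 3 regions lay in the 15.8 kb between Hoxc8 and Hoxc6, and in Hoxd, 3 lay in the 20.3 kb between Hoxd8 and Hoxd4. Of the 36 regions in spaces, 11 touched a Hox promoter and 25 did not. Counted from whole gene records in place of the shortest transcripts, the number in spaces was 16.

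Among 22 annotated long noncoding RNA genes in the windows, 10 had a region at the promoter (45.5%, 26.9% to 65.3%), against 28.3% of all 9793 such genes. In 4 of the 10 it was also at a Hox promoter. These 4 were Hoxa11os, which runs opposite to Hoxa11, Haglr, which starts next to Hoxd1, Gm28309 and Gm28793. The other 6 were Hotairm1, Gm15050, Gm53, Gm11536, Hoxb3os and Hoxd3os1. Gm53 had 2 regions, of 417 and 212 bp, and Hoxd3os1 had 2, of 424 and 375 bp. Of the short RNA records other than microRNA genes, Gm27867, Gm28032, Gm27492, Gm27695 and Gm27280 had a region within their promoter distance, in 3 cases the region at Hoxa11. All of these lay in the Hoxa window, and the other such records of the windows had none. Gm27867 lies within Hotairm1, and Gm28032, Gm27492 and Gm27695 lie within Hoxa11os. Their regions are the same ones as those named for Hotairm1 and Hoxa11os, not further ones. No region was at the promoters of Hoxaas2, Hoxaas3, Hotair, a Hoxc transcript reported to act on Hoxd, of Hottip, at the 13 end of Hoxa, or of Halr1. Evx2, a homeobox gene beside Hoxd13, had 3 regions on its gene, of 619, 255 and 442 bp, and none at its promoter. Of the 6 microRNA genes with sequences above, Mir615 was overlapped by a region, Hoxc_r8 with 172 bp, which overlapped both mature sequences printed above and began within that of the 5p product. The others lay between 1004 and 6319 bp from the nearest region, Mir10b closest and Mir196a-1 farthest.

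Motifs were searched on both strands, and a match describes letters only. The HOX-PBX motif, TGAT and AT with 2 bases between them, bound by Hox proteins with their PBX partners, was in 9 members (9.38%, 5.01% to 16.9%), against 9.62% of all regions. It was in regions at the promoters of Hoxa4, Hoxa7, Hoxa11, Hoxc9 and Hoxd11, 5 of the 27 regions at Hox promoters (18.5%, 8.18% to 36.7%), against 7.51% of regions at protein-coding promoters. Of the 69 members away from Hox promoters 4 had it (5.80%, 2.28% to 13.98%), against 10.1% of all regions away from protein-coding promoters. The SOX motif, CCATTGT or CCTTTGT, was in 10 members (10.4%, 5.76% to 18.1%), against 16.0% of all regions. The octamer ATGCAAAT, bound by OCT4, was in 1 member (1.04%, 0.184% to 5.67%), against 2.66%. That member was Hoxa_r14 (chr6:52240275-52240797), a region of 523 bp at the upstream start site of Hoxa10, which also held a SOX motif.

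The DR5 element was searched as 5 bases between 2 elements, each AGGTCA with G also allowed at base 1 and T at base 3, and the first element of Hoxa_r2 starts with G. It was in 1 of 96 members (1.04%, 0.184% to 5.67%) and in 199 of all regions (0.245%). With AGGTCA required on both sides, no member and 41 of all regions had it. The same elements with 2 bases between them (DR2) were in no member, which allows a share of up to 3.13% (3 counts of 96, not a Wilson limit), and in 0.524% of all regions. The core of the CTCF motif, CCA and AGGGGGC with 2 bases between them, was in no member, with the same limit, and in 2.46% of all regions. Other forms of the CTCF motif were not searched.

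Genes that act with or on the clusters mostly had a promoter region, as did 95.6% of all protein-coding genes with an island there. Among the TALE homeodomain cofactors of Hox proteins, 8 of 9 had one, with widths up to 951 bp at Pbx3, and Pbx2 had none. All 8 retinoic acid receptor and enzyme genes had one, with the widest, 1035 bp, at Rarb. Of 12 chromatin regulators of Hox clusters, 11 had one. Among the Polycomb genes of this list, the widest regions were 1463 bp at Eed, 1279 bp at Cbx2, 762 bp at Suz12 and 728 bp at Ezh2. Those of Rnf2, Cbx7, Ring1 and Bmi1 were 706, 681, 516 and 391 bp, and Pcgf2 had none. Of 8 neighbouring and ParaHox homeobox genes, 5 had one. These were Gsx1, Gsx2 and Pdx1, with 474, 525 and 578 bp, and Cdx2 and Cdx1, with 952 and 146 bp. Neither Evx1 nor Evx2, the homeobox genes at the 13 end of Hoxa and Hoxd, nor Cdx4 had one.

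The keratin gene clusters, also tandem families and on the chromosomes of Hoxb and Hoxc, served as a comparison. Of 27 genes of the type I keratin cluster 5 had a promoter region (18.5%), and of 26 genes of the type II cluster 6 did (23.1%). Among the latter were Krt8 and Krt18 of simple epithelia, of which Krt18 is a type I gene that lies in the type II cluster. An island was at the promoter of 2 genes of the type I cluster and 3 of the type II cluster. The shares with a region are over all genes of each cluster, with and without an island, against 65.1% of all protein-coding genes. Among protein-coding genes without an island the share was 22%, but the keratin counts were not restricted to such genes. Of the keratin genes with an island, Krt10, Krt7, Krt18 and Krt87 had a region and Krt27 had none. These clusters held 2.89 and 3.798 regions per 100 kb and 1.06 and 1.02 CpG islands per 100 kb. Regions and islands were thus both sparser there than in the Hox clusters, where the values were 15.3 and 19.4. The part of CpG content in the density was not tested.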

How the data were processed

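ATAC-seq libraries were aligned by the authors to mm10 with STAR (2.5.3a), unique reads were kept, duplicates were removed with Picard, and peaks were called per library with MACS2 (2.1.1.20160309) on whole fragments. The submitters' processing notes name these tools too. BEDOPS was used by the authors to merge peaks over the 12 libraries, and they removed those overlapping peaks of a ChIP-seq input. No shift for Tn5 is named in the methods. Whole fragments set the width of a region, and regions called in different libraries are joined by the merge, so that width is not a level. The deposited list has 3 columns, chromosome, start counted from 0 and end, and neither a level nor the reads behind a region. The 4 ChIP-seq samples were not analysed here.

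Regions were placed on GENCODE M21 and GRCm38 with Python (3.11.15), numpy (2.4.6), pandas (2.3.3) and scipy (1.17.1), and plots were drawn with matplotlib (3.10.9). Overlap meant at least 1 bp. Expected CpG was the product of C and G counts over length. Tiles with over 10% unknown bases were left out. Scripts were tested on simulated data. Named were the 38 Hox genes, other genes of the windows with a promoter region, genes that border the windows, microRNA genes and lists of cofactors, retinoic acid genes, chromatin regulators, ParaHox genes, keratins and cell type markers. Members and lists were chosen with earlier results of these data known. The remaining genes of the windows are not reported here. No test was made. Other definitions of windows, promoters, islands, regions and motif windows were tried.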

Additional observations from a re-analysis of the deposited data

How the results depend on the processing

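Over 13 results, 36 alternatives were computed, and 28 moved the value by less than its interval or, for counts, by at most 1.5 times. In the others the cause was not tested unless the alternative shows it. Keeping regions of at least 200 bp alone, which removes regions, gave 11.5 regions per 100 kb and 5.23% covered, and joining regions at most 500 bp apart, which adds the gaps, gave 6.32% covered. Hox genes with a promoter region numbered 13 when the centre of the region had to lie in the promoter and 37 with promoters of 5 kb to both sides. Islands of at least 200 bp, which are more numerous, had a region in 28.6%. With AGGTCA required in both elements, 0 members had a DR5 element. Bodies from whole gene records, chosen after seeing the data, left 16 regions in the spaces. Among the 28, the 5' end of each gene as its single TSS gave 17 of 38 Hox genes with a promoter region. The main TSS alone, also chosen after seeing the data, gave 20 of 38 (52.6%, 37.3% to 67.5%). The share of all protein-coding genes was not computed for either TSS rule, so these counts cannot be set against it. No paired analysis was possible because the list holds no value per library. A region absent from the list may have been under the authors' threshold, and no level, population or replicate can be read from the list.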
